A study of Mus musculus with 10 samples.

Results

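The ribosomal protein genes of mouse bone marrow derived macrophages are described here as a group of 88 genes. They are the genes of the deposited table whose mouse symbol starts with Rpl or Rps and a digit, or with Rplp, or equals Rpsa. The Rps6k kinases and symbols that mark pseudogenes were left out, and a value of 10 or more in at least 2 of the 10 libraries was required. Of 92 matching symbols 88 reached that level, among 13171 genes that did so in the whole table. They hold 31 genes of the small subunit, 43 of the large subunit and 3 of the stalk, together 77 canonical genes, and 10 paralogs or copies. The remaining gene, Rps19bp1, encodes a binding partner of a ribosomal protein and is not itself a ribosomal protein. Among the 10 copies, Rpl37rt, Rps4l, Rpl6l and Rps3a2 are annotated as pseudogenes in GENCODE M21. Below the limit were the testis-type paralog Rpl10l, listed at 0 in every library, the muscle paralog Rpl3l, with a highest value of 10, and the copies Rps12l1 and Rps3a3, with highest values of 9 and 8. Fau and Rack1, whose symbols do not match the rule, also encode ribosomal proteins and are described beside the group.

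The cells were primary macrophages grown from the marrow of C57BL/6 mice, and 5 groups of 2 libraries each were compared. KO PolyIC libraries came from Tlr4 -/- cells pre-treated with Poly(I:C), which mimics viral double-stranded RNA. KO control libraries came from Tlr4 -/- cells kept for 6 h in a medium holding 5% FBS (fetal bovine serum) and 2% BSA (bovine serum albumin), and KO untreated libraries from Tlr4 -/- cells without pre-treatment. WT control and WT untreated libraries came from wild-type cells handled in these last 2 ways. The series asks how loss of TLR4, the receptor for bacterial lipopolysaccharide, bears on inflammatory signalling in macrophages. The labels state neither the length of the Poly(I:C) pre-treatment nor its serum and albumin, nor the medium of untreated cells. They do not describe the deleted allele, and no Poly(I:C) libraries of WT cells were analysed here. No label gives the cultures or mice behind the libraries of a group, so the p-values measure a spread between libraries that may be technical. Tlr4 RNA was present in every library, at 30.8 to 63.4 CPM in KO and 32.3 to 69.1 CPM in WT libraries, so genotypes, and every direction drawn between KO and WT, go by the labels. A value per gene does not show which exons were read, so it cannot check a deletion of part of the gene.

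Deposited totals were 25218442 to 51679463 units per library. The units are whole numbers that had already been scaled per library, so they were read as a signal and not as read counts, and no counting error can be given. Levels are in CPM, the deposited value scaled to a common library total that was corrected by a trimmed mean of M values (TMM) factor. A gene was called when limma's test on log2(CPM + 0.1), fitted to all 10 libraries and 13171 genes, gave a Benjamini-Hochberg adjusted p under 0.05. In 2 libraries, KO untreated replicate 2 and KO control replicate 2, several GC-rich ribosomal protein mRNAs were low, and results that rest on these libraries are marked below. The 8 macrophage markers tested summed to 23500 to 27700 CPM in every library. Cd3e, Cd3g, Cd8a and Ncr1 of T and NK cells, and Mcpt4, Cpa3 and Fcer1a of mast cells were listed at 0 throughout. The remaining markers of these lists, Cd4, Klrb1c and Kit, were above 0 in some libraries, and Kit differed between groups.

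The cytosolic ribosome translates all nuclear-encoded mRNAs, and its small subunit reads the mRNA while its large subunit joins the amino acids. Each ribosomal protein is needed in a single copy per ribosome, apart from the acidic stalk proteins, which recruit the elongation factors and are present in several copies. Ribosomal protein mRNAs belong to the TOP class: they begin with a cytosine followed by a run of pyrimidines, through which the kinase mTOR and the RNA-binding protein LARP1 control their translation. In macrophages such mRNAs are among the most abundant of the cell, and translation of them is regulated when the cells are activated.

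The start of transcription carries that pyrimidine run, so the annotated starts of members that the results turn on are shown. The RefSeq promoter table (GRCm38.p6) held an entry for 65 of the 88 genes, and for 57 of the 77 canonical ones. Each line gives the 10 bases before the annotated start and the 20 bases from it, 5′ to 3′, on the strand of the gene, and capitals mark the longest run of at least 5 pyrimidines that lies within 5 bases of the start, as far as it falls in the window.
Rps24 (chr14:24490668-24490697, plus strand): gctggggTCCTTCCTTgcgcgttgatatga
Rpl27 (chr11:101442235-101442264, plus strand): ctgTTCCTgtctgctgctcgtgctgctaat
Rpl38 (chr11:114668570-114668599, plus strand): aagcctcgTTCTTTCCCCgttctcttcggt
Rps27 (chr3:90213629-90213658, minus strand): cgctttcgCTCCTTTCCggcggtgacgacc
Rpl4 (chr9:64173377-64173406, plus strand): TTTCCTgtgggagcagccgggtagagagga
Rpl5 (chr5:107900518-107900547, plus strand): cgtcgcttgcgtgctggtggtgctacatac
Rps24, Rpl27, Rpl38 and Rps27 rose in a comparison below, and Rpl4 and Rpl5 fell. Rps24 and Rpl4 were also called in the opposite direction, Rps24 lower and Rpl4 higher in KO control than in WT control cells. The runs in Rpl27 and Rpl4 end before the annotated start, Rpl5 had none there, and a further annotated start of Rps24 had none either, so the annotated positions do not show a run for every gene.

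Such a run was found in 32 of the 57 canonical genes with an entry (56.1%), against 36.7% of all 27025 genes in the table. The letters CTTTCC were found on the sense strand in the same 30-base window in 9 of 57 genes (15.8%), against 1.52% of all genes, and CTTTTCC in 3 (5.26%), against 0.35%. In the whole window from 250 bases before to 50 bases after the start, searched on both strands, CCGGAAGT, a sequence bound by the factor GABPA, occurred in 11 of 57 genes (19.3%), against 4.31% of all genes. AAGATGGC, a sequence bound by YY1, occurred in 5 (8.77%), against 3.19%. A gene with several annotated starts counts as holding a motif if any of them does. These are matches of letters, and no binding was measured.

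Ribosomal protein mRNAs were abundant, and most canonical genes had levels of the same order. Canonical genes averaged 139.5 to 1505 CPM over the 5 groups, and 70 of the 77 reached 300 CPM. Expressed per kilobase of the principal annotated transcript, the median was 637 CPM and the highest canonical level was 19.3 times the lowest. Rpl10, a late-joining protein of the large subunit, was highest at 1760 CPM per kb. It was followed by the stalk protein gene Rplp1 at 1516, the small subunit genes Rps29 at 1458 and Rps18 at 1222, and the large subunit gene Rpl26 at 1364 CPM per kb. The lowest canonical levels were 91.2 CPM per kb for Rpl22, 104 for Rps15a, 129 for Rpl18 and 131 for Rps20. The last 3 of these have principal transcripts of 5179, 2989 and 3706 bases in the annotation, which lowers a level per length if the cells use a shorter one.

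**Figure D1:**
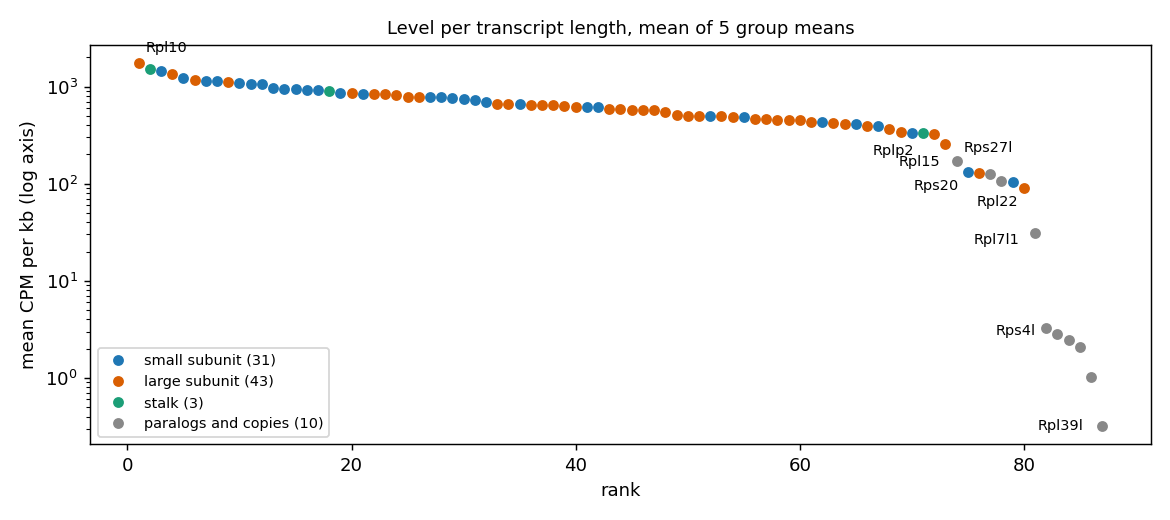
Level of 87 ribosomal protein genes and copies, ranked by mean CPM per kb of the principal transcript (log axis), with 1 point per gene coloured by class. The canonical genes form a plateau from 1760 to 91.2 CPM per kb, and the paralogs and copies other than Rps27l, Rpl36al and Rpl22l1 lie below it.

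The paralogs were a minor part of the group. Rpl36al reached 125 CPM per kb, Rps27l 171 and Rpl22l1 106, while Rpl7l1 stood at 31.2 CPM per kb. Rps4l, Rpl37rt, Rps27rt, Rps3a2, Rpl6l and Rpl39l, the testis-type paralog of Rpl39, stayed at 0.319 to 3.26 CPM per kb. At these levels a few reads shared with a parent gene could make up the whole value. Rps4l was 1.31 and 8.16 CPM in the 2 WT control libraries and 0.877 and 4.67 CPM in the 2 WT untreated libraries, so its replicates differed more than its groups.

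The share of the deposited total that the 88 genes held differed between the groups. It was 3.72% and 3.56% of the deposited total in KO PolyIC libraries, 5.45% and 5.31% in KO control, 5.73% and 5.37% in KO untreated, 3.85% and 3.79% in WT control, and 5.49% and 5.66% in WT untreated libraries. The KO PolyIC and WT control libraries thus lay below all others and did not overlap with them. With 2 libraries a group an exact test of the share cannot reach 0.05, so none was made. In the KO PolyIC and WT control libraries a few strongly raised genes took a larger part of the total. Whether this bears on the share of the 88 genes was not tested. The 10 genes that gained most share, among them Acod1, which makes itaconate, the antiviral gene Rsad2 and Actb, held 6.14% of the total in KO PolyIC against 0.733% in KO untreated cells, and the 10 of the wild-type comparison 4.52% in WT control against 0.941% in WT untreated cells.

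After TMM scaling the summed level of the 88 genes was 51871 and 50558 CPM in KO PolyIC, 46239 and 46003 in KO control, 47275 and 45223 in KO untreated, 45131 and 46570 in WT control, and 44741 and 47734 CPM in WT untreated libraries. On this scale the KO PolyIC libraries were highest and the WT control libraries lay within the range of the remaining ones. The direction for the group as a whole therefore depends on what the libraries are scaled to, and mRNA per cell was not measured. Changes are read below against the median of all genes, which was −0.52 in WT control against WT untreated cells and −0.76 in KO PolyIC against KO control cells with totals alone, against −0.005 and −0.065 with TMM.

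**Figure D2:**
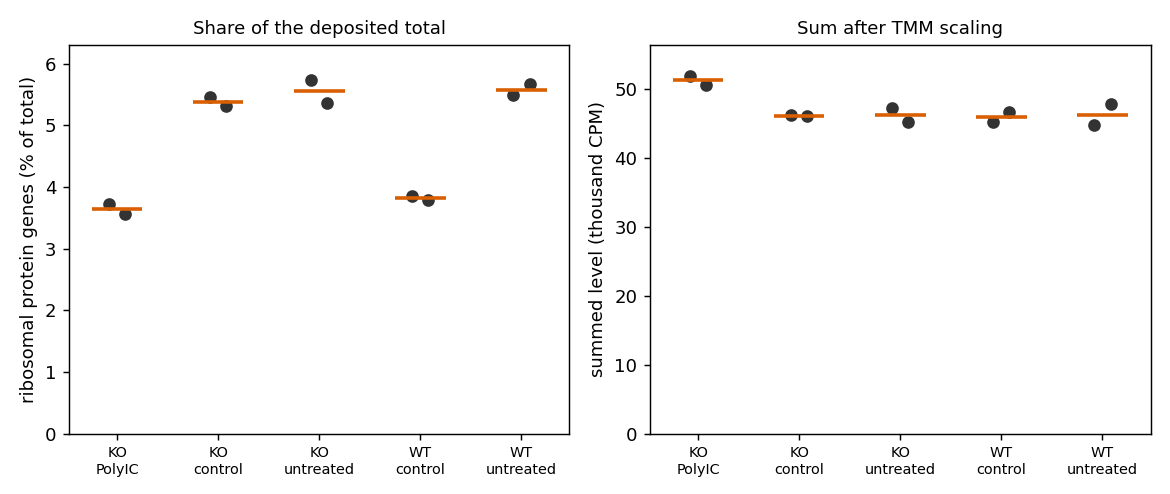
Ribosomal protein genes by library (points) and group mean (lines) in the 5 groups, as percent of the deposited total (left) and as summed CPM after TMM scaling (right). The KO PolyIC and WT control libraries sit at 3.56% to 3.85% on the left and the others at 5.31% or more, whereas on the right WT control lies among the untreated libraries.

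In wild-type cells the control medium left the level of the ribosomal protein group near that of the typical gene, while 3 large subunit genes fell. Rpl3 (ENSMUSG00000060036, chromosome 15, 80077791 to 80091868, minus strand, GRCm38) encodes a large subunit protein next to the peptidyl transferase centre. It was 816 and 759 CPM in WT control libraries, against 986 and 986 CPM in WT untreated libraries. The groups did not overlap, and the log2 fold change was −0.32 (SE 0.07, limma adjusted p = 0.0018). Rpl4, an early-assembling protein that lines the exit tunnel, was 1186 and 1158 CPM in WT control, against 1369 and 1336 CPM in WT untreated libraries (log2 −0.21, SE 0.07, limma adjusted p = 0.0212). Rpl5, which carries the small ribosomal RNA of the large subunit and, when free, restrains MDM2, was 845 and 813 CPM in WT control, against 976 and 925 CPM in WT untreated libraries (log2 −0.20, SE 0.07, limma adjusted p = 0.0297). The call of Rpl3 was kept when each library of the comparison was left out in turn, whereas those of Rpl4 and Rpl5 were lost without either WT control library and without WT untreated replicate 1.

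Rising genes were Rpl27 and Rpl7l1. Rpl27, of the large subunit, was 320 and 319 CPM in WT control, against 255 and 283 CPM in WT untreated libraries (log2 0.25, SE 0.07, limma adjusted p = 0.00898). Rpl7l1, a paralog of Rpl7 that takes part in assembling ribosomes, was 93.2 and 88.6 CPM in WT control, against 78.9 and 67.8 CPM in WT untreated libraries (log2 0.31, SE 0.08, limma adjusted p = 0.0076). Rpl27 lost its call without WT untreated replicate 1 (limma adjusted p = 0.0586) and Rpl7l1 without WT untreated replicate 2 (limma adjusted p = 0.0552). In all, 2 of 88 genes rose and 3 fell, against 33.1% and 32.8% of all genes tested, and the group's median change was −0.002 against −0.005 for all genes. Among the 83 that did not pass were Rps6, the substrate of S6 kinase (log2 −0.03), Rplp0 of the stalk base (0.15) and Rpl13a (−0.26, limma adjusted p = 0.0544), which has a role outside the ribosome in silencing inflammatory mRNAs in human cells. With totals alone 79 fell and 0 rose, where 58.4% of all genes fell and 17.2% rose, with group and all-gene medians of −0.54 and −0.52. With the values as deposited 21 rose and 0 fell, against 39.2% and 26% of all genes, and Rpl3 was at −0.17 (limma adjusted p = 0.115). A correction of each library for transcript GC content and length gave 1 up and 31 down, against 32.1% and 36% of all genes, with Rpl3 at −0.42 (limma adjusted p = 0.00064). Without WT untreated replicate 2 there were 8 that rose, and without WT control replicate 1, WT control replicate 2 or WT untreated replicate 1 there was 1 that fell.

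In Tlr4 -/- cells none of the 88 genes passed in KO control against KO untreated cells, where 10.9% of all genes were higher and 9.08% lower (limma), and Rpl3 was 951 and 949 CPM in KO control, against 995 and 989 CPM in KO untreated libraries (log2 −0.06, SE 0.07, limma adjusted p = 0.57). Without pre-treatment none of the 88 differed between KO untreated and WT untreated cells either, where 0.0835% of all genes were higher and 0.0835% lower (limma). The lowest fold changes there were those of Rpl36 and Rplp2, GC-rich mRNAs that were low in KO untreated replicate 2. The median change was 0.015 in KO untreated against WT untreated cells and −0.006 in KO control against KO untreated cells. Differences between replicates 2 and 1 correlated between KO control and KO untreated cells at r = 0.937 over the 77 canonical genes. The fit holds no term for this shared part, so it may miss small changes, and fits with a block are described in the closing section. At an unadjusted p under 0.05 there were 0 genes in KO untreated against WT untreated cells and 1 in KO control against KO untreated cells, Rpl7l1, at 82.8 and 85.3 CPM in KO control against 71.6 and 72.2 CPM in KO untreated libraries (limma adjusted p = 0.0887).

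After the control medium, KO and WT cells differed in 4 genes. Rpl3 was higher in KO control cells, at 951 and 949 CPM against 816 and 759 CPM in WT control cells (log2 0.27, SE 0.07, limma adjusted p = 0.00582). Rpl4 was 1310 and 1334 CPM in KO control, against 1186 and 1158 CPM in WT control libraries (log2 0.17, limma adjusted p = 0.0466), and Rpl22, an RNA-binding protein of the large subunit, 193 and 192 CPM in KO control, against 170 and 173 CPM in WT control libraries (log2 0.17, limma adjusted p = 0.0428). Rps24, a small subunit protein needed for processing the precursor of its ribosomal RNA, was lower, at 844 and 868 CPM in KO control against 985 and 1032 CPM in WT control libraries (log2 −0.24, SE 0.08, limma adjusted p = 0.0214). The groups of these 4 genes did not overlap. Thus 3 of 88 rose and 1 fell, against 30.9% and 30.2% of all genes tested. The call of Rpl3 was lost without WT control replicate 2 (log2 0.22, limma adjusted p = 0.0545), and those of Rpl4 and Rpl22 whichever of the 4 libraries of the comparison was left out (limma adjusted p = 0.0935 to 0.184). Rps24 lost its call without either KO control library and without WT control replicate 2 (limma adjusted p = 0.0657 to 0.115). With totals alone 78 of the 88 were higher in KO control cells, against 58.2% of all genes that were higher and 15.8% that were lower, and Rps24 turned to 0.25. With the values as deposited 0 were higher and 23 lower, against 22.5% and 37.5% of all genes, with Rpl3 at 0.09. With the GC content and length correction 38 were higher and 0 lower, against 35% and 29.4% of all genes, with Rpl3 at 0.40 (limma adjusted p = 0.00104).

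The difference between the genotypes in their response to the control medium was tested as an interaction. Rpl3 was the member that passed, with a log2 difference of 0.26 (SE 0.10, limma adjusted p = 0.047), since it was lower after the medium in WT cells by more than in KO cells. This made 1 of 88 higher and 0 lower, against 22% and 23.7% of all genes. The call did not hold without KO control replicate 1 or 2, KO untreated replicate 1 or 2, WT control replicate 2 or WT untreated replicate 1 or 2 (limma adjusted p = 0.0662 to 0.157), while the difference stayed between 0.21 and 0.27. With totals alone 75 of 88 were called higher, against 49.5% of all genes.

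In Poly(I:C)-treated KO cells more ribosomal protein genes passed than in the other comparisons on this scale, most of them higher, while Rpl3 fell. In KO PolyIC against KO control cells 27 of 88 rose and 1 fell, where 32.5% of all genes rose and 36.9% fell. With TMM and no replicate block the share that rose, 27 of 88, was near that of all genes, and few fell. Other scalings and blocks gave other counts, which are set out below, so this nearness belongs to the TMM fit. The count that rose was 13 without KO control replicate 1, 16 without KO PolyIC replicate 2 and 18 without KO PolyIC replicate 1 or KO control replicate 2. The median change of the group was 0.16 against −0.065 for all genes. With all libraries, those that rose were 10 of 31 small subunit genes, 16 of 43 large subunit genes, 0 of 3 stalk genes and the paralog Rpl36al. The binding protein gene Rps19bp1 was 11.2 and 8.58 CPM in KO PolyIC against 10.7 and 9.44 CPM in KO control libraries and passed in no comparison. Against KO untreated cells 30 rose and 2 fell, where 34.5% of all genes rose and 37.6% fell, with medians of 0.17 and −0.04. Here the count that rose was 16 without KO PolyIC replicate 1, 19 without KO PolyIC replicate 2 and 16 without KO untreated replicate 2. These 2 comparisons share the KO PolyIC libraries. Counts with a library left out are not set against all genes, so their fall is not read as particular to the group.

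Among the genes that passed, Rps24 rose most in KO PolyIC against KO control cells. The gene (ENSMUSG00000025290) lies on chromosome 14, 24487125 to 24496959, plus strand, GRCm38. It was 1285 and 1265 CPM in KO PolyIC, 844 and 868 CPM in KO control and 862 and 911 CPM in KO untreated libraries. Its log2 fold change was 0.58 over KO control (SE 0.08, limma adjusted p = 7.51e-05) and 0.52 over KO untreated cells (SE 0.08, limma adjusted p = 0.000129). Both KO PolyIC libraries lay above all other libraries of the study, and the 2 calls held when each library was left out in turn.

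Next came Rpl38, which in mouse embryos is needed for translating a set of homeobox mRNAs, at 244 and 238 CPM in KO PolyIC against 189 and 179 CPM in KO control libraries (log2 0.39, SE 0.09, limma adjusted p = 0.0026). Rps27, a zinc finger protein of the small subunit, was 374 and 380 CPM in KO PolyIC against 294 and 284 CPM in KO control libraries (log2 0.39, SE 0.09, limma adjusted p = 0.00329). Neither gene overlapped between the groups. Rpl27 rose by 0.36 over KO control (limma adjusted p = 0.000896) and by 0.42 over KO untreated cells (limma adjusted p = 0.00028).

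Rpl3 fell to 824 and 795 CPM in KO PolyIC, against 951 and 949 CPM in KO control libraries (log2 −0.23, SE 0.07, limma adjusted p = 0.0113) and 995 and 989 CPM in KO untreated libraries (log2 −0.29, SE 0.07, limma adjusted p = 0.00279). The first of these calls was lost without KO PolyIC replicate 2, KO control replicate 1 or KO control replicate 2 (limma adjusted p = 0.0554 to 0.0652). Rpl4 was 1216 and 1172 CPM in KO PolyIC, against 1310 and 1334 CPM in KO control libraries, which did not pass (log2 −0.15, limma adjusted p = 0.0766), and 1348 and 1377 CPM in KO untreated libraries (log2 −0.19, limma adjusted p = 0.0278).

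Among the genes that passed over KO untreated cells, the largest rises were in Rplp1, Rps24, Rps29 and Rps21. Rplp1 was 962 and 878 CPM in KO PolyIC against 788 and 404 CPM in KO untreated libraries (log2 0.70, SE 0.27, limma adjusted p = 0.0401), and without KO untreated replicate 2 the change was 0.22 (limma adjusted p = 0.385). Rps29, a small zinc-binding protein of the small subunit, rose by 0.51 (limma adjusted p = 0.00608), and by 0.28 without KO untreated replicate 2 (limma adjusted p = 0.0494). Rps21, of the small subunit, rose by 0.45 (limma adjusted p = 0.0278). For Rps21 the value without KO untreated replicate 2 was 0.23 (limma adjusted p = 0.237). The calls of Rplp1 and Rps21 were also lost without either KO PolyIC library. Without KO untreated replicate 2 and KO control replicate 2 together, 6 of 88 rose over KO untreated cells and 15 over KO control cells.

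The members that did not pass in either Poly(I:C) comparison include many with well-known roles. Rps6 (log2 0.07 over KO control cells), Rps3 at the mRNA entry (0.16), Rps19, mutated in Diamond-Blackfan anaemia in humans (0.14), Rps4x (0.06), Rpsa, also known as laminin receptor (−0.03), Rpl10 (0.05), Rpl11, a partner of Rpl5 in binding MDM2 (0.03), Rpl13a (−0.02) and Rpl26 (0.15) did not pass. Rps27a, which encodes ubiquitin fused to a ribosomal protein, was at 0.14 (limma adjusted p = 0.11).

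The Poly(I:C) counts turned with the scaling. With totals alone 78 of 88 fell against KO control and 80 against KO untreated cells, where 67.4% and 66.1% of all genes fell, and 0 of the 88 rose, where 15.8% and 16.8% of all genes did. The values as deposited gave 68 up and 0 down over KO control, against 39.5% and 28.5% of all genes, and 70 up and 0 down over KO untreated cells, against 41.3% and 30.4%. The GC content and length correction, chosen after the data were seen, gave 3 up and 21 down over KO control, against 31.6% and 39.6% of all genes, and 4 up and 29 down over KO untreated cells, against 33.5% and 40.5%. Under it Rps24 still rose (0.35 and 0.28, limma adjusted p = 0.00238 and 0.00746) and Rpl3 still fell (−0.39 and −0.47, limma adjusted p = 0.00108 and 0.000264), while Rps27 was at −0.09. Across the 77 canonical genes the change over KO control cells correlated with log2 transcript length at r = −0.29, as a description over genes that share the libraries.

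**Figure D3:**
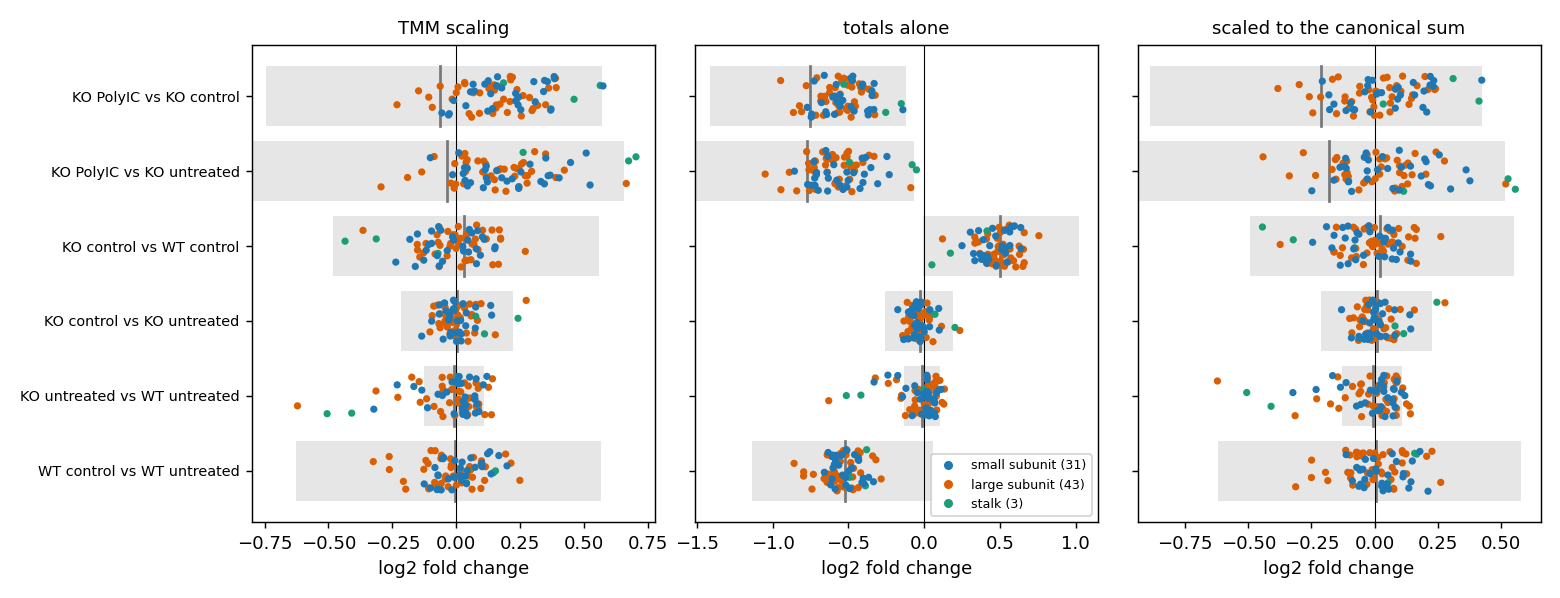
Log2 fold change of the 77 canonical genes (points, by class) in 6 comparisons, scaled by TMM, by totals alone and to the canonical sum, with the interquartile range (grey bar) and median (grey line) of all 13171 genes. The points move with the grey median between the first 2 panels, and in both Poly(I:C) comparisons most of them lie on the higher side of it in these panels.

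Each gene was also set against the sum of the 77 canonical genes in its library, a scaling chosen after the data were seen. Rpl3 made up 1.60% and 1.59% of that sum in KO PolyIC, 2.08% and 2.08% in KO control, 2.12% and 2.21% in KO untreated, 1.83% and 1.65% in WT control, and 2.22% and 2.08% in WT untreated libraries. The KO PolyIC and WT control libraries lay below those of the other 3 groups. Rps24 made up 2.50% and 2.52% in KO PolyIC, 1.84% and 1.90% in KO control, 1.84% and 2.03% in KO untreated, 2.20% and 2.24% in WT control, and 2.19% and 1.84% in WT untreated libraries. The ratio of Rps24 to Rpl3, a pair chosen after their values were seen, was 1.58 ± 0.0219 in KO PolyIC, 0.901 ± 0.0201 in KO control, 0.894 ± 0.0386 in KO untreated, 1.28 ± 0.108 in WT control and 0.935 ± 0.0697 in WT untreated cells (SD, n = 2 each).

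Fitted on this scale, 5 genes rose and 2 fell in WT control against WT untreated cells, where 33.2% of all genes were higher and 31.8% lower. Among them Rpl7l1 (log2 0.33), Rpl27 (0.26), Rpl38 (0.23) and Rpl34 (0.21) rose, and Rpl3 (−0.31, limma adjusted p = 0.00602) and Rpl13a (−0.25, limma adjusted p = 0.038) fell. In KO PolyIC against KO control cells 7 rose and 6 fell, where 26.8% of all genes were higher and 42.3% lower. Among those that rose were Rps24 (0.42), Rpl38 (0.24), Rps27 (0.23), Rpl27 (0.21), Rps28 (0.21) and Rpl41 (0.20). Among those that fell were Rpl3 (−0.38, limma adjusted p = 0.00151), Rpl4 (−0.30), Rpl14 (−0.26) and Rpl10a (−0.24). In KO PolyIC against KO untreated cells 8 rose and 5 fell, where 29.4% and 42.4% of all genes did, with Rps24 at 0.38 and Rpl3 at −0.44. Between KO control and WT control cells Rpl3 was higher by 0.26 (limma adjusted p = 0.0171) and Rps24 lower by 0.25 (limma adjusted p = 0.0444), as the only calls among the 88, where 29.8% and 30% of all genes were called. The interaction of Rpl3 did not pass on this scale (log2 0.25, limma adjusted p = 0.0996).

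**Figure D4:**
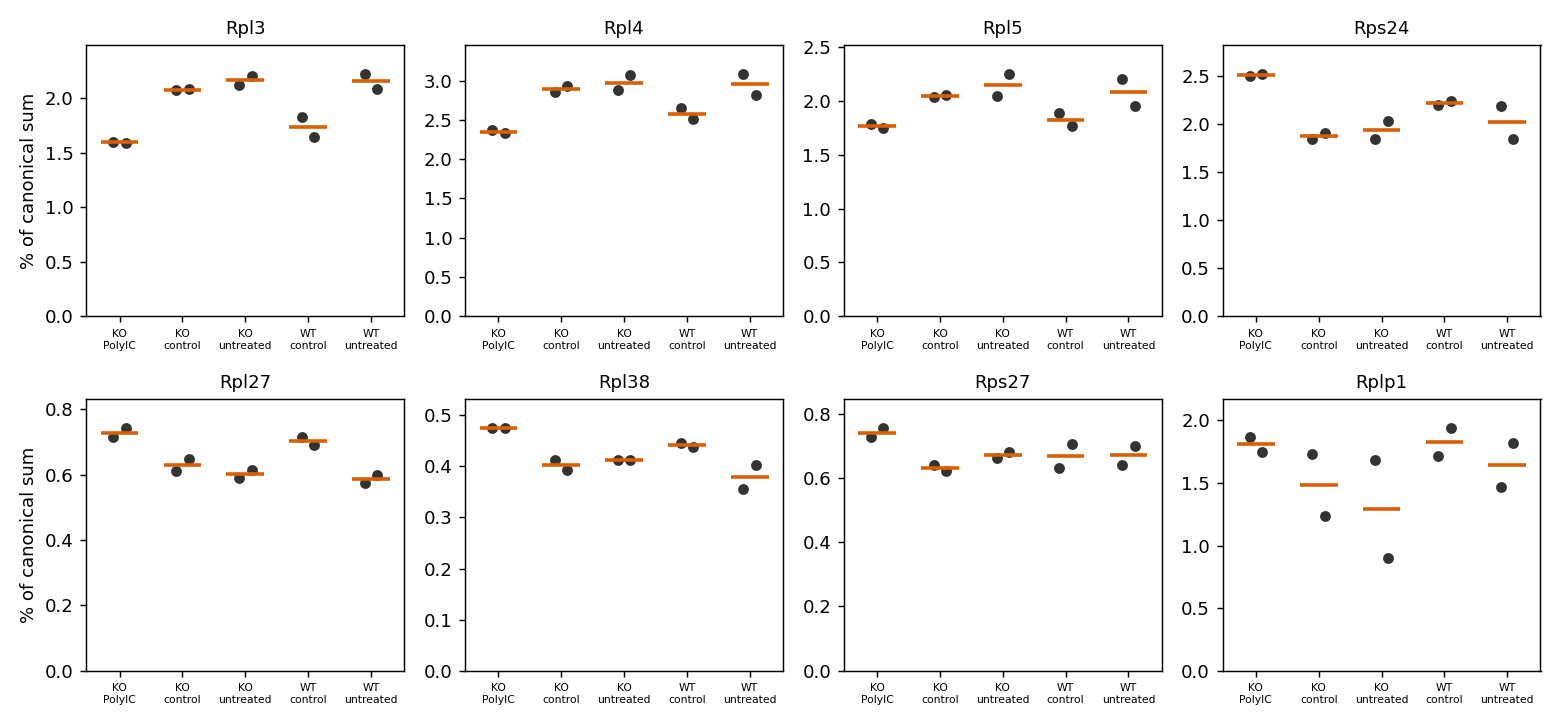
Share of 8 genes in the summed value of the 77 canonical genes (percent), by library (points) and group mean (lines). By group mean Rpl3, Rpl4 and Rpl5 are lowest and Rps24, Rpl27, Rpl38 and Rps27 highest in KO PolyIC, with WT control next except for Rps27, while the replicates of the stalk gene Rplp1 lie apart in the KO control and KO untreated groups.

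Paralogs were set against the gene they resemble. The ratio of Rps27l, a target of p53, to Rps27 was 0.237 ± 0.0151 in KO PolyIC, 0.299 ± 0.0137 in KO control, 0.27 ± 0.0127 in KO untreated, 0.263 ± 0.033 in WT control and 0.287 ± 0.0284 in WT untreated cells (SD, n = 2 each). Rps27 rose in KO PolyIC against KO control cells and Rps27l was at 0.05 (limma adjusted p = 0.58), and the difference between the 2 genes was not tested. Rpl36a and Rpl36al both rose in that comparison, by 0.21 and 0.18 (limma adjusted p = 0.015 and 0.0338). Rpl22l1, which in mice is raised when Rpl22 is lost, ranged from 0.29 to 0.338 of Rpl22 over the group means, and Rpl22l1 passed in no comparison. Rpl39 rose by 0.30 over KO control cells (limma adjusted p = 0.0138), whereas Rpl39l stayed at or below 0.742 CPM in every library. Near-identical processed pseudogenes of these genes exist in the mouse genome. Those whose symbol is a member's symbol with the ending -ps held 0.138% to 0.159% of the group's summed value per library. Pseudogenes with other symbols were not counted in this share. Whether the authors' counting moved reads between a gene and such copies could not be read from the labels or files.

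Replicates of the group were not equally close. The SD over the 77 canonical genes of the log2 difference between replicates 2 and 1 was 0.0926 in KO PolyIC, 0.153 in KO control, 0.252 in KO untreated, 0.0994 in WT control and 0.137 in WT untreated cells. Rpl36 was 168 and 146 CPM in KO PolyIC, 153 and 92.6 in KO control, 155 and 62.5 in KO untreated, 132 and 178 in WT control, and 127 and 181 CPM in WT untreated libraries. Rplp2 was 429 and 339 CPM in KO PolyIC, 320 and 208 in KO control, 334 and 171 in KO untreated, 301 and 405 in WT control, and 295 and 390 CPM in WT untreated libraries. Both genes were thus lower in the second KO library of each group and higher in the second WT library. Across the 77 genes the difference between replicates correlated with transcript GC content at r = −0.28 in KO PolyIC, −0.43 in KO control and −0.49 in KO untreated cells, and at 0.29 in WT control and 0.46 in WT untreated cells. The same over 9990 genes with a mean value of 100 or more gave −0.20, −0.28, −0.47, 0.20 and 0.09 in this order. The 5 widest spreads of group means among canonical genes, 0.627 log2 for Rplp1, 0.606 for Rplp2, 0.575 for Rps24, 0.526 for Rpl36 and 0.492 for Rps29, include 4 genes that were lower in KO untreated replicate 2 than in replicate 1. Rps24 was not one of them, with a difference of 0.08.

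**Figure D5:**
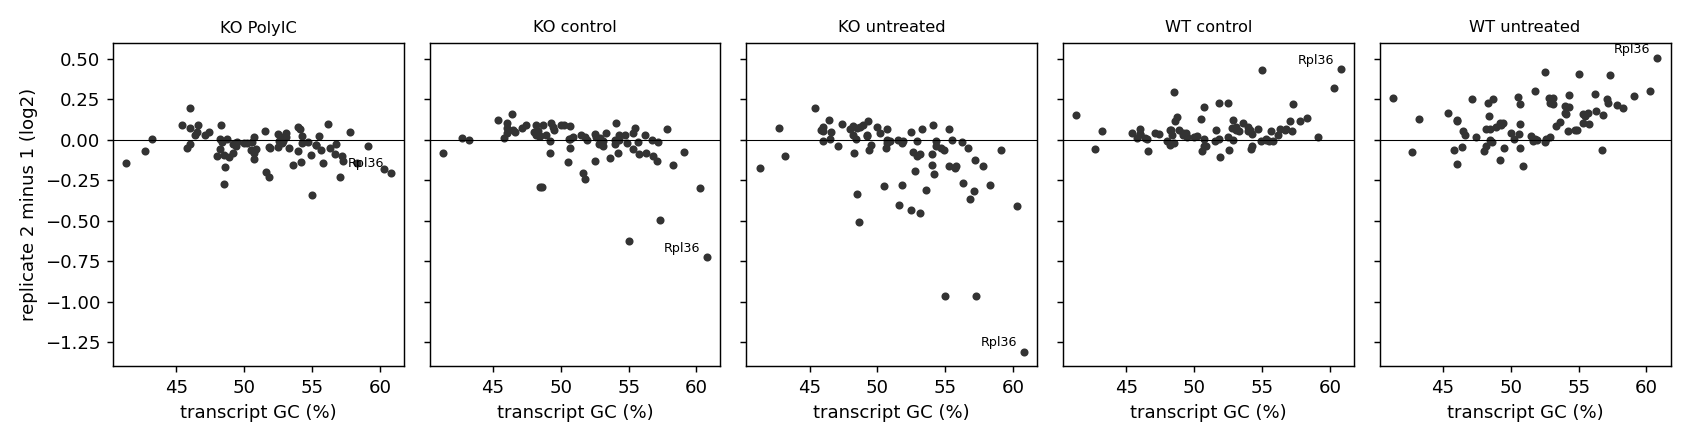
Log2 difference between replicates 2 and 1 of each group against transcript GC content (percent) for the 77 canonical genes, 1 point per gene. Rpl36, the lowest gene, is at −0.73 in KO control and −1.31 in KO untreated cells. Rpl38, also GC-rich, is at −0.075 and −0.064, so the relation is loose. In both WT groups the slope is upward.

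Of the ribosomal proteins outside the rule, Rack1, a signalling scaffold on the small subunit, was 1192 and 1191 CPM in KO PolyIC, 1131 and 1124 in KO control, 1184 and 1118 in KO untreated, 1130 and 1087 in WT control, and 1037 and 1147 CPM in WT untreated libraries. Rack1 and Fau passed in no comparison with TMM, and Fau was at 0.30 in KO PolyIC against KO control cells (limma adjusted p = 0.158).

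Of 60 tested ribosome biogenesis genes, 35 rose and 0 fell in KO control against KO untreated cells (median 0.42), where 10.9% of all genes rose and 9.08% fell. In WT control against WT untreated cells 30 rose and 4 fell (median 0.31), against 33.1% and 32.8% of all genes. In KO PolyIC 4 rose and 28 fell against KO control (median −0.23), where 32.5% and 36.9% of all genes did, and 25 rose and 10 fell against KO untreated cells (median 0.20), where 34.5% and 37.6% did. Dkc1, the pseudouridine synthase, was 19.3 and 20.2 CPM in KO control, against 9.32 and 7.69 CPM in KO untreated libraries (log2 1.21, limma adjusted p = 0.00777). Wdr12, a large subunit assembly factor, was 6.32 and 5.64 CPM in KO PolyIC, against 20.5 and 21.1 CPM in KO control libraries (log2 −1.78, limma adjusted p = 8.23e-07). In KO control against WT control cells 7 rose and 8 fell, against 30.9% and 30.2% of all genes, and 0 passed between the untreated groups. With totals alone the wild-type medium response turned to 7 up and 23 down, against 17.2% and 58.4% of all genes. In KO PolyIC 0 rose and 56 fell against KO control, where 15.8% and 67.4% of all genes did, and 3 rose and 42 fell against KO untreated cells, where 16.8% and 66.1% did.

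Of 20 other TOP mRNAs, 2 rose and 4 fell in WT control against WT untreated cells, where 33.1% of all genes rose and 32.8% fell. In KO PolyIC against KO control cells 4 rose and 7 fell, where 32.5% and 36.9% of all genes did, and in KO control against KO untreated cells 0 passed. With totals alone 0 rose and 19 fell in WT control, against 17.2% and 58.4% of all genes, and 0 rose and 20 fell in KO PolyIC against KO control cells, against 15.8% and 67.4%. Eif4b, an initiation factor that assists the helicase of the cap complex, was 191 and 178 CPM in KO PolyIC, 357 and 359 in KO control, 391 and 400 in KO untreated, 228 and 209 in WT control, and 388 and 361 CPM in WT untreated libraries. It fell in both comparisons, with a log2 fold change of −0.96 in KO PolyIC against KO control (limma adjusted p = 1.26e-06) and −0.78 in WT control against WT untreated cells (limma adjusted p = 6.78e-06). Nap1l1, a histone chaperone, fell by 0.91 and 0.84 in the same comparisons.

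Of 34 initiation factors, 14 rose and 5 fell in KO PolyIC against KO control cells, where 32.5% of all genes rose and 36.9% fell. In KO control against KO untreated cells 9 rose and 0 fell, against 10.9% and 9.08% of all genes. In KO control against WT control cells 1 rose and 18 fell, against 30.9% and 30.2%, and in WT control against WT untreated cells 18 rose and 1 fell, against 33.1% and 32.8%. With totals alone 3 rose and 27 fell in KO PolyIC against KO control (all genes 15.8% and 67.4%), 20 and 3 in KO control against WT control (58.2% and 15.8%), and 8 and 17 in WT control against WT untreated cells (17.2% and 58.4%). Eif6, which keeps free large subunits from joining, was 144 and 124 CPM in KO PolyIC, 59.1 and 49.9 in KO control, 47.5 and 36.8 in KO untreated, 138 and 137 in WT control, and 45.1 and 53.0 CPM in WT untreated libraries. The KO PolyIC and WT control libraries were above all others, with log2 fold changes of 1.29 over KO control (limma adjusted p = 1.49e-05) and 1.49 over WT untreated cells (limma adjusted p = 6.58e-06).

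Of 35 tested genes that control ribosomal protein synthesis, 12 rose and 17 fell in KO PolyIC against KO control cells, where 32.5% of all genes rose and 36.9% fell. In KO control against WT control cells 14 rose and 12 fell, against 30.9% and 30.2%, and in WT control against WT untreated cells 14 rose and 11 fell, against 33.1% and 32.8%, so most of these counts were near those of all genes. With totals alone 7 rose and 26 fell in KO PolyIC against KO control (all genes 15.8% and 67.4%), 20 and 6 in KO control against WT control (58.2% and 15.8%), and 8 and 19 in WT control against WT untreated cells (17.2% and 58.4%). Sesn1, a leucine-responsive brake on mTOR complex activity, was 4.70 and 6.08 CPM in KO PolyIC, 163 and 175 in KO control, 100.1 and 103 in KO untreated, 11.97 and 15.6 in WT control, and 94.4 and 92.7 CPM in WT untreated libraries. Deptor, an inhibitory partner of mTOR, and Eef2k, the kinase that slows elongation, were low in the same groups, at −3.48 and −2.74 in KO PolyIC against KO control and −3.36 and −3.62 in WT control against WT untreated cells. Myc, a transcription factor that raises ribosome production, rose by 1.21 in KO control against KO untreated cells (limma adjusted p = 0.000657).

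Markers of other cell types and of RNA quality were set beside these results. Of 7 tested neutrophil and granulocyte precursor markers 6 rose in KO PolyIC against KO control (32.5% of all genes did) and 4 in WT control against WT untreated cells (33.1%), and 6 were lower in KO control than in WT control cells (30.2%). Their sum was 96.6 and 99.4 CPM in KO PolyIC, 18.6 and 14.5 in KO control, 26.4 and 22.9 in KO untreated, 80.4 and 109 in WT control, and 17.9 and 34.8 CPM in WT untreated libraries. The 4 stromal markers summed to 9.05 and 6.65 CPM in KO PolyIC, 3.73 and 4.96 in KO control, 2.81 and 2.95 in KO untreated, 12.1 and 15.1 in WT control, and 3.07 and 5.33 CPM in WT untreated libraries. The B cell markers, led by Cd79b, summed to 7.53 to 11.4 CPM in KO PolyIC and WT control and 37.0 to 53.0 CPM in the other libraries. Kit, the only mast cell marker above 0, was 1.18 and 0.935 CPM in KO PolyIC against 0.0991 and 0.13 CPM in KO control libraries. It was called higher there (log2 2.43), over KO untreated cells (3.03) and in WT control against WT untreated cells (2.12). In KO control against WT control cells it was called lower (−2.01). T and NK cell markers summed to at most 1.79, mast cell markers to at most 1.18, erythroid markers to at most 0.893 and dendritic cell markers to at most 0.852 CPM. Their part in the results was not tested. In bulk RNA fewer cells of a type and less RNA per cell cannot be told apart. The 13 mitochondrially encoded mRNAs held 1.76% and 1.60% of the total in KO PolyIC, 2.21% and 2.43% in KO control, 2.24% and 2.38% in KO untreated, 1.49% and 1.44% in WT control, and 1.95% and 1.93% in WT untreated libraries.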

How the data were processed

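The authors deposited 1 table whose whole-number values had been scaled library by library, used here as a signal and not as counts, and 1 table of regularised log2 values. Per the submitters' processing notes the tools were DESeq2, RSEM 1.2.12, STAR 2.4.0d and Trim Galore 0.2.8, and per the labels' protocols RNA came from a Qiagen RNeasy kit and libraries from a TruSeq Stranded mRNA kit. The build of the alignment was not given in the sources used here. Gene symbols came from a reference list of gene names, which gave a symbol for 44585 of 45318 IDs. Gene types, positions, lengths and GC content came from GENCODE M21 (GRCm38). Lengths and GC content use 1 principal transcript per gene.

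Genes whose deposited value reached 10 in 2 or more libraries were kept, 13171 of 20687 above 0. The deposited signal was scaled by TMM factors (30% of M and 5% of A values trimmed), turned into log2(CPM + 0.1) and tested with limma 3.58.1 (R 4.3.3) with a mean trend, 5 group terms and all 10 libraries, at a Benjamini-Hochberg adjusted p under 0.05. Fold changes on this scale understate those of low genes. The fit was also run on simulated counts with known changes in a small part of the genes. These held no broad shift and no replicate effect, so they do not test the choice of scaling. The members, the gene lists and the cell markers were chosen with earlier results of these data known. Named are, in each comparison, the 4 called members with the largest rise and the 4 with the largest fall, a set of members of known interest and paralog pairs, the 5 highest and 5 lowest per length, the 5 with the widest spread and the 3 called list genes with the largest change. Some genes that this rule names are not reported here. Rpl36, the calls on the canonical scale and the motif searches were added after values were seen. Alternatives were other scalings, pseudocount 1, no filter, the regularised log2 table, smaller fits and replicate blocks. Others were pseudogenes with -ps symbols added to members, a GC content and length correction, and each library left out in turn.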

Additional observations from a re-analysis of the deposited data

Results flagged for a closer look

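The response of Rpl3 to the control medium differed between the genotypes, by an interaction of 0.26 on the log2 scale (KO response minus WT response, SE 0.10, limma adjusted p = 0.047). The log2 change was −0.06 in KO control against KO untreated cells and −0.32 in WT control against WT untreated cells. The call was lost in 14 of 21 settings, while the direction was kept in all 21.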

How the results depend on the processing

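Counts of ribosomal protein genes that rose and fell depended most on scaling, and the cause was not tested. Where a count in this section is given for a single direction, the other is not stated and is not to be read as 0. With library totals alone they were 78 and 0 in KO control against WT control, 0 and 79 in WT control against WT untreated, 0 and 78 in KO PolyIC against KO control and 0 and 80 in KO PolyIC against KO untreated cells, with 75 higher in the interaction. With values as deposited they were 0 and 23, 21 and 0, 68 and 0, 70 and 0, and 0 and 6 in the same order. Median of ratios and the regularised log2 table gave 1 up and 4 down in KO control against WT control cells. They gave 4 up in WT control against WT untreated and 47 up and 0 down in KO PolyIC against KO control cells. In KO PolyIC against KO untreated cells 1 fell, and 0 passed in the interaction. Of 13171 genes, median of ratios had 3830 higher and 4158 lower in KO control against WT control cells. It had 4466 and 4212 in WT control against WT untreated, and 4643 and 4449 in KO PolyIC against KO control cells. Against KO untreated cells KO PolyIC had 4833 and 4654, and the interaction 2710 and 3303. Scaled to the canonical sum, a choice made after seeing the data, 1 rose and 1 fell in KO control against WT control cells. On that scale 5 rose and 2 fell in WT control against WT untreated cells. In KO PolyIC 7 rose and 6 fell against KO control and 8 rose and 5 fell against KO untreated cells. There 0 passed in the interaction. The GC content and length correction, also chosen after seeing the data, gave 38 and 0, 1 and 31, 3 and 21, and 4 and 29, with 6 higher in the interaction. With no filter 1 rose in KO control against WT control, 1 fell in KO PolyIC against KO untreated cells and the interaction had 0. With only the groups compared 2 fell in KO control against WT control and 1 rose in KO control against KO untreated cells. In that fit 1 fell in KO PolyIC against KO untreated cells and the interaction had 0. All-gene shares by direction are not given for the regularised log2 table, no filter, smaller fits, replicate blocks and left-out libraries. For the blocks, all-gene counts of both directions together are given below. The counts of members under the other settings are not read against all genes, so their changes are not taken as particular to the group.

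Deviations of same-numbered libraries correlated at 0.171 to 0.315 within a genotype and 0.013 to 0.111 across genotypes over 13171 genes. Over the 77 canonical genes they correlated at 0.565 to 0.937 and −0.773 to −0.093. Replicate numbers thus did not pair the libraries across genotypes. Within a genotype same-numbered libraries shared deviations, most strongly among canonical genes. The reported fit holds no term for these, so its p-values leave them out. With the replicate block 6 rose and 3 fell in KO control against WT control, 6 and 5 in WT control against WT untreated, and 2 fell in KO PolyIC against KO control cells. With a block within genotype, chosen after seeing the data, 1 rose in KO untreated against WT untreated, 16 rose in KO control against WT control, 9 rose and 7 fell in WT control, 1 rose in KO control against KO untreated, 50 rose and 2 fell in KO PolyIC against KO control cells, and 4 were higher and 1 lower in the interaction. Without a block 27 rose and 1 fell in KO PolyIC against KO control cells. Of all 13171 genes, 9139 were called there in either direction without a block. With the replicate block 9492 were, and with the block within genotype 9944. In the interaction these all-gene counts were 6025, 6585 and 7361 in the same order. Calls thus grew among all genes too, and the higher member counts under the blocks are not read as particular to the group. All 21 named fold changes kept their call under both blocks.

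Leaving out 1 library at a time gave 0 to 2 up and 0 to 2 down in KO control against WT control, 1 to 8 up and 1 to 3 down in WT control, 13 to 18 up and 0 to 1 down in KO PolyIC against KO control, 16 to 32 up and 1 down against KO untreated cells, and 0 to 2 up and 0 to 4 down in the interaction. The lowest were 13 without KO control replicate 1, 16 without KO PolyIC replicate 1 and 16 without KO untreated replicate 2. Without KO untreated replicate 2 and KO control replicate 2 together there were 0 and 0 in KO control against WT control, 15 and 0 in KO PolyIC against KO control and 6 and 1 against KO untreated cells.

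Single fold changes that turned sign did so with totals alone (Rps24 0.25 in KO control against WT control; Rpl7l1 −0.22 and Rpl27 −0.28 in WT control; Rps24 −0.14, Rpl38 −0.33 and Rps27 −0.33 in KO PolyIC against KO control; Rplp1 −0.051, Rps24 −0.23, Rps29 −0.25 and Rps21 −0.31 against KO untreated cells), with values as deposited (Rpl4 −0.005 and Rpl22 −0.014 in KO control against WT control, Rpl4 0.007 in KO PolyIC against KO untreated cells) and with the GC content and length correction (Rps27 −0.091). With 2 libraries a group and scaled values, no counting error is known, and changes of low copies such as Rps4l were not detectable.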
